A study of Mus musculus with 3 samples.

Results

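Malat1, Neat1 and Gas5 are 3 long noncoding RNAs, out of 18193 genes that an array measured in sorted kidney progenitors of the mouse embryo. They were read by 13 of 45037 probe sets other than controls, 7 for Malat1, 2 for Neat1 and 4 for Gas5. The members are all probe sets whose only platform gene symbol is Malat1, Neat1 or Gas5. The genes were chosen by measured values, because the Malat1 probe sets disagreed between the arrays, so the differences between pools below are a description and carry no test. The 3 samples formed 1 group: cap mesenchyme cells sorted by fluorescence from E15.5 kidneys (Theiler stage 23) of CD-1 mice that carry the transgene Tg(Six2-EGFP/cre)1Amc. In this transgene, Six2 regulatory sequence drives a fusion of EGFP and cre recombinase. Each array held RNA from a pool of about 5 to 10 kidneys after 2 rounds of amplification, from embryos of unknown sex, and there was no control group. The samples are called pools 1 to 3 after their titles. All 3 share the same recorded dissociation: trypsin at 37 °C, lasting 5 min, and a mesh of 70 micron. No label ties the pools to litters, so p-values measure only the spread between these 3 pools, which may be technical.

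Malat1 is a long, largely unspliced RNA that gathers in nuclear speckles, the compartments that store splicing factors. Its 3' end is not made by ordinary polyadenylation: RNase P and RNase Z cut off a small tRNA-like RNA, and a triple helix protects the new end. Neat1, its neighbour on the chromosome, is the scaffold of paraspeckles, nuclear bodies that hold RNA-binding proteins, and exists in a short polyadenylated and a long form. Gas5 is a spliced host gene whose introns release small nucleolar RNAs (snoRNAs), while its exons belong to the terminal oligopyrimidine class, whose translation follows growth signals and whose members start with C and a run of pyrimidines.

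RefSeq (GRCm38.p6) lists 1 transcript for Malat1 over a locus of 6983 bases, 2 for Neat1 over 20773 bases and 8 for Gas5 over 3939 bases. The start sites are shown because the pyrimidine start is the sequence feature that defines the class of Gas5. Each sequence runs 5′ to 3′, with 30 bases before the annotated start in lower case and the first 40 bases of the transcript in capitals. Malat1 is at chr19:5802633-5802702 on the minus strand, and the upstream and downstream starts of Gas5 are at chr1:161034571-161034640 and chr1:161035136-161035205 on the plus strand. The starts of the snoRNA host genes Snhg7 (chr2:26640205-26640274, minus strand) and Snhg8 (chr3:123508297-123508366, minus strand) are set beside them.
Malat1: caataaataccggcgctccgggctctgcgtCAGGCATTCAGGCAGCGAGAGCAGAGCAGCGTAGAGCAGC
Gas5 upstream start: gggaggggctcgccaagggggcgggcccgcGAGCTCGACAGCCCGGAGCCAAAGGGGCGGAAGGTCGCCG
Gas5 downstream start: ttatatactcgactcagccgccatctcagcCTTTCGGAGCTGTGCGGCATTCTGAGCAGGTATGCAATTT
Snhg7: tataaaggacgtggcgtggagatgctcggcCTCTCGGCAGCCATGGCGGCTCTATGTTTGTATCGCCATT
Snhg8: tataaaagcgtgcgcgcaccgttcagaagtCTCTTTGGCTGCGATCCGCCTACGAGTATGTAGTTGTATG

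The downstream start of Gas5 opens with a run of 5 pyrimidines, Snhg7 with 5 and Snhg8 with 6. Malat1 opens with 1, and the upstream Gas5 start with 0. A start with C and at least 4 pyrimidines after it was found in 2.51% of the 32851 start windows of the table, on the strand of the transcript. Of 17 snoRNA host genes other than Gas5 with a window, 2 had such a start, namely Snhg7 and Snhg8, beside 3.01% of all 27025 genes. Such a start is a match of letters, and the arrays do not show which start was used.

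All 3 genes gave signals above background. In all, 12 of 13 probe sets of the 3 genes were above the background level, the 95th percentile of 148 probe sets for sensory receptor, hair and mucosal defence genes on the same array (signals of 197, 187 and 201 in pools 1 to 3). Of all 45037 probe sets, 41.5% passed the same test (limma, one-sided, Benjamini-Hochberg adjusted over all of them). By at least 1 probe set, 54.4% of the 18193 genes with a probe set of their own were above background. The level against background was not used to choose the genes, although the spread between pools enters the test. Signals are linear intensities, and since probe sets differ in affinity, they do not rank one probe set or gene against another.

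**Figure D1:**
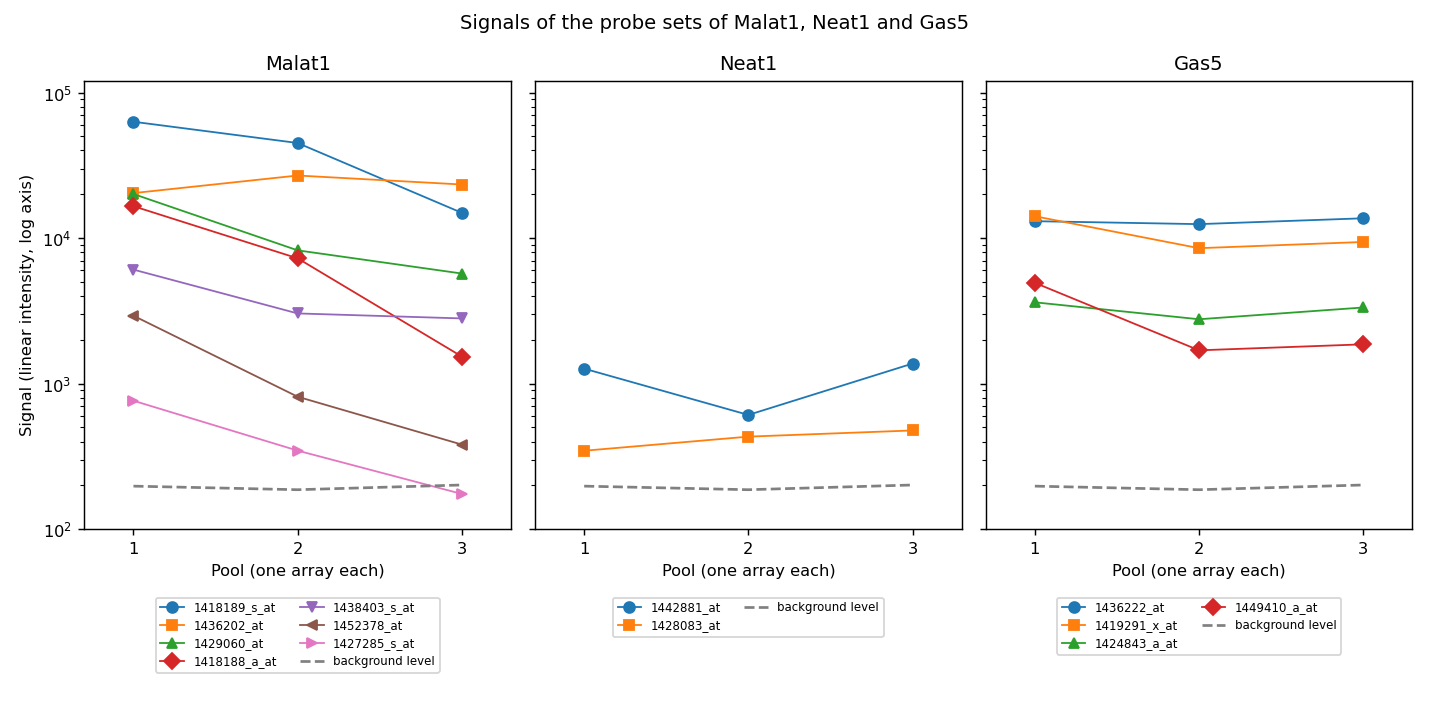
Signal (linear intensity on a log axis) of each probe set of Malat1, Neat1 and Gas5 in pools 1, 2 and 3, with 1 point per array. The dashed line is the background level, and lines only link points of the same probe set. Of the 7 Malat1 probe sets, 6 are highest in pool 1 and lowest in pool 3, while 1436202_at stays between 20377 and 26912.

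Malat1 was read very differently by its own probe sets. The brightest on average, 1418189_s_at, had signals of 63013, 45015 and 14912 in pools 1, 2 and 3, a 4.23-fold difference between the highest and the lowest pool. Probe set 1418188_a_at, which is annotated to the same GenBank sequence, read 16559.7, 7258 and 1535, a 10.8-fold difference. Probe set 1429060_at read 20079.8, 8235 and 5706, and 1438403_s_at read 6071, 3035 and 2804. In all 4, pool 1 was highest and pool 3 lowest.

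Probe sets 1452378_at and 1427285_s_at of Malat1 share 1 GenBank sequence and followed the same order of pools. Probe set 1452378_at read 2926, 813 and 381, a 7.68-fold difference. Probe set 1427285_s_at read 762, 346 and 174, and it was the member that did not pass against background (adjusted p = 0.0793, limma). It lay under the background level only in pool 3. These 2 probe sets are therefore not independent readings of Malat1, and neither are the pair 1418189_s_at and 1418188_a_at.

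One Malat1 probe set did not follow this order. Probe set 1436202_at read 20377, 26912 and 23343, with pool 2 highest, pool 1 lowest and a 1.32-fold difference between them. Its mean of 23544 ± 3272 (SD, n = 3) lay 6.79 log2 units over background (SE 0.15, adjusted p = 1.65e-08, limma). Against it, the means of 1418189_s_at (40980.1 ± 24303) and 1418188_a_at (8451 ± 7583, SD, n = 3 each) had SDs of 59.3% and 89.7% of the mean. A statement on whether Malat1 RNA was higher in pool 1 than in pool 3 would therefore depend on the probe set: 6 of 7 read it higher there, by 2.16-fold to 10.8-fold, and 1 read 0.873 of the level in pool 3. In such bulk samples, fewer cells of a type and less RNA per cell cannot be told apart. Pool 1 was highest for the same number, 6 of 7, under all 5 other pseudocounts and scalings tried. The full order of pool 1 over pool 2 over pool 3 was seen in 6, and in 5 when arrays were scaled on hybridization controls.

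Among all 18680 probe sets above background, 12.6% differed by 2-fold or more between the highest and lowest pool. Of the 12 member probe sets above background 7 did so, which are 5 of 6 for Malat1, 1 of 2 for Neat1 and 1 of 4 for Gas5. With 1427285_s_at the count was 8 of 13, and without pool 1 it was 4 of 13. The log2 range of 3.42 of 1418188_a_at was reached or passed by 16 probe sets above background, itself included, while the median range was 0.49 and the 90th percentile 1.09. Pool 1 over pool 2 over pool 3, with 2-fold or more from pool 1 to pool 3, was the pattern of 5 of the 6 Malat1 probe sets above background. This pattern was found in 6.04% of all probe sets above background, and the opposite order in 2.16%. Since Malat1 was chosen for this disagreement, nothing is read from these counts for it.

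**Figure D2:**
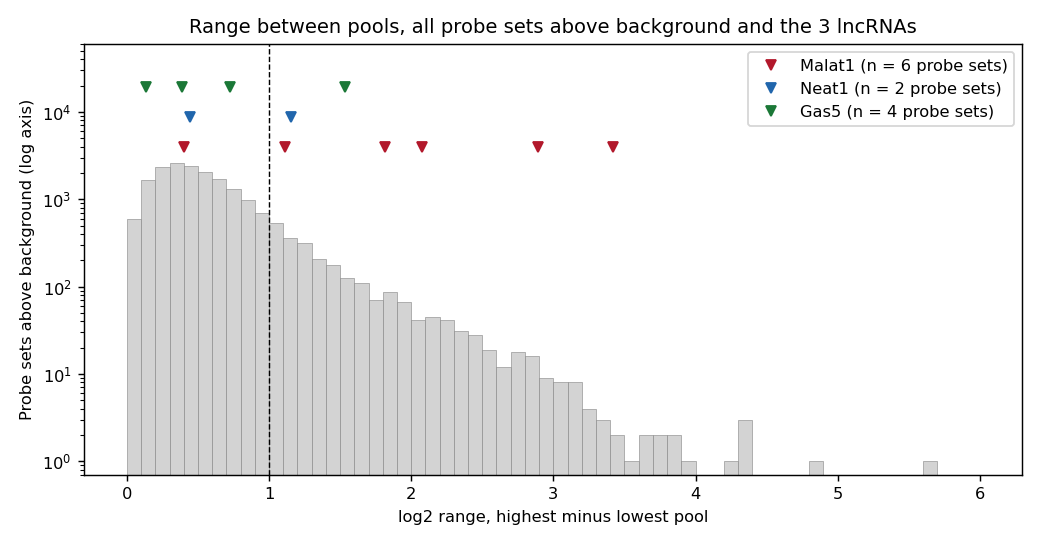
Histogram of the log2 range (highest minus lowest pool) of all 18680 probe sets above background, on a log count axis, with triangles for the probe sets of the 3 genes and a dashed line at 2-fold. Of the 6 Malat1 triangles, 5 lie to the right of the line, as do 1 of 2 for Neat1 and 1 of 4 for Gas5.

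The disagreement within a gene was measured as the spread of the log2 ratios between 2 pools over its probe sets above background, taking the pair of pools with the largest spread. For Malat1 this spread was 3.61 log2 units, from pools 1 and 3. It was 2.12 without pool 1, 3.61 without pool 2 and 2.23 without pool 3. Of 57 other genes with 6 probe sets above background, 4 had a spread as large, and their median was 1.66. Neat1 had a spread of 1.35 against a median of 0.60 among 2533 other genes with 2 such probe sets, of which 302 were as large. Gas5 had 1.46 against a median of 1.27 among 391 other genes with 4, of which 162 were as large. Across all 4113 genes with at least 2 probe sets above background, 35.8% had a spread of 1 log2 unit or more. The share was larger with more probe sets. It was 613 of the 2533 other genes with 2, 247 of the 391 with 4 and 49 of the 57 with 6.

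**Figure D3:**
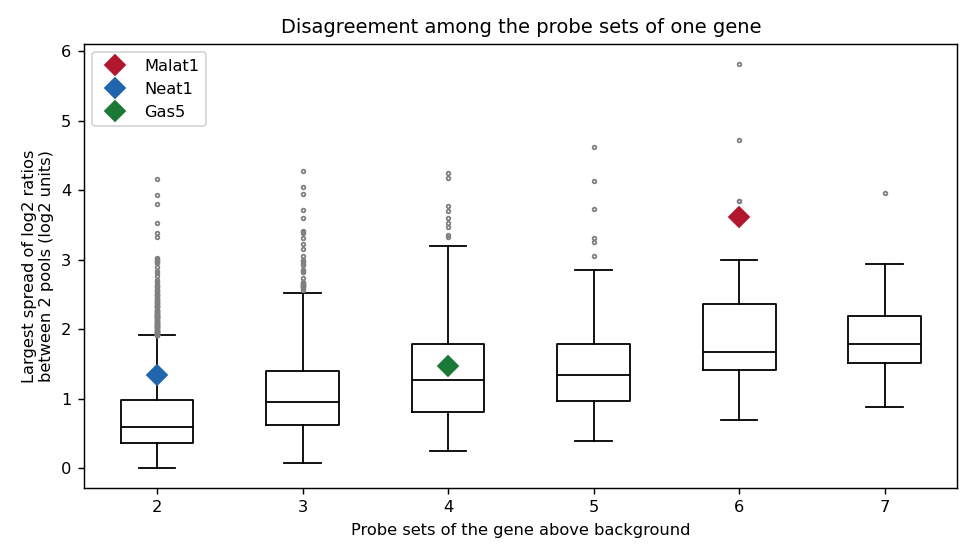
Largest spread of log2 ratios between 2 pools over the probe sets of a gene, by the number of its probe sets above background. Boxes show quartiles and medians of the other genes, whiskers reach 1.5 times the box height, and grey circles are genes beyond them. Malat1 (3.61) lies above its box, Neat1 (1.35) above the upper quartile of its box, and Gas5 (1.46) inside its box.

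Control probe sets for several parts of the same transcripts differed between pools as well. Arrays of this type carry probe sets for the 5' part, the middle and the 3' part of beta-actin and of the transferrin receptor. The 5' beta-actin probe set read 12417, 3851 and 2736 in pools 1, 2 and 3, the middle one 28090.3, 13449 and 7692, and the 3' one 43933, 37423 and 24837. The ratio of 3' to 5' signal for beta-actin was thus 3.54 in pool 1, 9.72 in pool 2 and 9.08 in pool 3. For the transferrin receptor the ratio of 3' to 5' signal was 3.57, 8.86 and 5.94, and that of 3' to middle signal was 3.20, 4.02 and 7.35.

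The 18S ribosomal RNA, which has no poly(A) tail, read 51529, 31805 and 6832 on its 5' probe set. Its middle probe set read 66509, 111273 and 35520 and its 3' one 52674, 54117 and 16765, both with pool 2 highest. All 3 beta-actin and all 3 transferrin receptor probe sets had the same order of pools as the 6 Malat1 probe sets. The 3 Gapdh probe sets, in contrast, were all lower in pool 1 than in pool 3, with ratios of 3' to 5' signal of 20.5, 33.1 and 16.9. This ratio was 1.02, 1.70 and 2.45 for 18S. For pyruvate carboxylase, whose 5' probe set was weak (222, 176 and 149), it was 3.16, 4.27 and 6.29. The ratio of 3' to middle signal of beta-actin was 1.56, 2.78 and 3.23, and that of Gapdh 4.13, 4.38 and 3.52. The part of RNA integrity or of the reach of amplification in the Malat1 differences was not tested, and the positions of the Malat1 probe sets along the RNA were not used here.

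**Figure D4:**
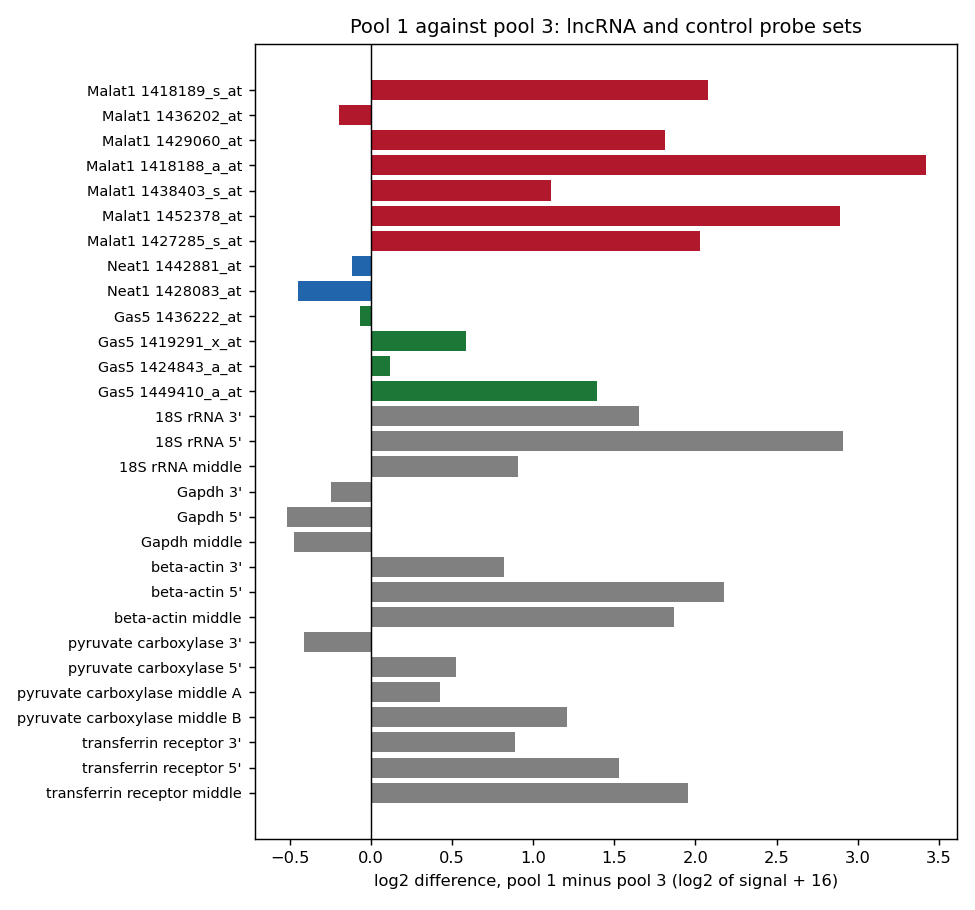
Difference between pools 1 and 3 on the scale log2(signal + 16), for each probe set of Malat1 (red), Neat1 (blue) and Gas5 (green) and for control probe sets of 5 transcripts (grey). Bars to the right are higher in pool 1. Bars for 6 of 7 Malat1 probe sets point right, up to 3.42, as do all bars of 18S rRNA, beta-actin and the transferrin receptor, while all Gapdh bars and the 3' pyruvate carboxylase bar point left.

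Neat1 was above background on both of its probe sets. Probe set 1442881_at read 1267, 609 and 1372.5 in pools 1, 2 and 3, with a mean of 1083 ± 414 (SD, n = 3; adjusted p = 4.27e-05, limma). Pool 2 was the low one, at less than the level of either other pool by 2.08-fold to 2.25-fold. Probe set 1428083_at read 346, 432 and 476, a 1.38-fold difference (418 ± 66.5, adjusted p = 0.00284, limma), and it lost its call against the 99th percentile of background (adjusted p = 1).

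The 2 Neat1 probe sets put pool 2 in different places: lowest on 1442881_at and between the others on 1428083_at. Without pool 2 their spread fell from 1.35 to 0.33 log2 units. Neither probe set had the order of pools seen for Malat1, although the 2 genes are neighbours on chromosome 19, with a single small RNA gene between them in RefSeq. Which Neat1 form each probe set reads is not given in the sources used here.

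One Gas5 probe set was nearly level between pools. Probe set 1436222_at read 13064, 12467 and 13676 in pools 1, 2 and 3, or 13069 ± 605 (SD, n = 3), a 1.10-fold difference and an SD of 4.63% of the mean. Its log2 range was 0.13, and 0.43 with arrays scaled on hybridization controls, where that of Malat1 1436202_at was 0.22. It lay 5.95 log2 units over background (SE 0.12, adjusted p = 1.65e-08, limma). Probe set 1424843_a_at read 3618, 2768 and 3334, a 1.31-fold difference, and 1419291_x_at read 14127, 8522 and 9402, a 1.66-fold difference.

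The remaining Gas5 probe set stood apart. Probe set 1449410_a_at read 4924, 1693 and 1861, so that pool 1 was 2.91-fold over pool 2 and 2.65-fold over pool 3, while pools 2 and 3 were close. The adjusted p values of the 4 Gas5 probe sets against background lay between 1.65e-08 and 1.03e-05 (limma). In 3 of the 4, pool 1 was highest, and in none was pool 3 lowest. Without pool 1 the spread of the log2 ratios over the Gas5 probe sets was 0.13 instead of 1.46.

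Other long noncoding RNAs were examined from a list of 42 genes. Of these, 27 had a probe set of their own and 14 were above background, beside 54.4% of all 18193 genes. The brightest probe set of each differed by 2-fold or more between pools in 2 of the 14, Miat and Firre, beside 6.88% of all 9889 genes above background. Miat, a nuclear RNA also found in neural and cardiac tissue, read 443, 583 and 1319.5, and Firre, which is transcribed from the X chromosome, read 1064, 1614 and 2206. Both were thus highest in pool 3, unlike Malat1. Tug1, with 26622, 34204 and 26975, and Kcnq1ot1, the antisense RNA that silences an imprinted domain, with 6338, 7827 and 6100.4, were highest in pool 2.

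Several of these RNAs also had probe sets that disagreed. Norad, an RNA that binds Pumilio proteins, read 44298, 55481 and 39536 on 1428286_at, but 8835, 2733 and 1679.98 on 1432646_a_at. Oip5os1, also called Cyrano, read 17303, 20682.5 and 15475 on 1428411_at, but 7834, 5724 and 2814 on 1430989_a_at. Meg3, an imprinted maternally expressed RNA, was near level on 1439380_x_at (2531, 2352 and 2689.55) and read 1114, 659.7 and 385 on 1452905_at. In all, 5 of 34 probe sets above background in this list had the order and size of change seen for Malat1, beside 6.04% of all probe sets. They lay in 4 of 14 genes, beside 768 of all 9889 genes above background. On the brightest probe set it was 0 of 14 genes, beside 140 of 9889.

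Among 12 listed RNAs with 2 or more probe sets above background, 6 had a spread of 1 log2 unit or more, and the largest was that of Norad (2.22). Over all genes with 2 or more such probe sets, the share was 35.8%, so disagreement of this size was also common outside the list. The 2 shares were not matched for the number of probe sets per gene, with which the spread grows, so their difference is not read. In each of Norad, Oip5os1 and Meg3 the brightest probe set was the level one, whereas in Malat1 the brightest probe set was among those that differed. Xist, the RNA that coats the inactive X chromosome in female cells, was not called above background (adjusted p = 0.135 on 1436936_s_at, limma). It read 161, 215 and 12287 there, with pool 1 under the background level, so no fold is given. The spread between pools enters this test (SE 1.07 log2 units), and pool 3 alone lay far over its background level of 201. All 3 Xist probe sets were highest in pool 3, and since the embryos were of unknown sex, the part of sex in other differences of pool 3 was not tested.

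**Figure D5:**
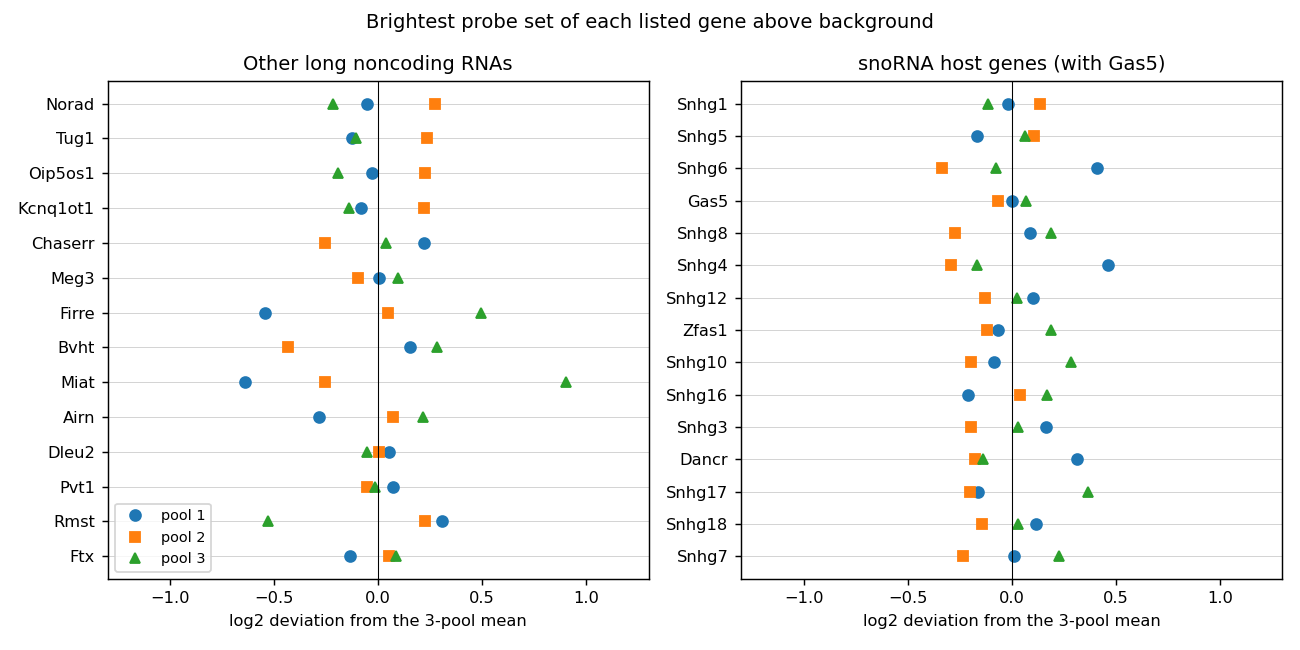
Deviation of each pool from the mean of the 3 pools, on the scale log2(signal + 16), for the brightest probe set of 14 other long noncoding RNAs (left) and 15 snoRNA host genes including Gas5 (right), all above background and ordered by signal. Miat and Firre have the widest ranges on the left (1.54 and 1.04), and each of the 15 on the right stays under a range of 1 log2 unit.

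The snoRNA host genes, the class to which Gas5 belongs, were mostly above background. The share of all 18193 genes above background was 54.4%. Of 17 measured hosts 15 passed, Gas5 among them, and the brightest probe set differed 2-fold or more in 0 of 15, beside 6.88% of all genes above background. The median log2 range of the 15 was 0.38, and that of all genes above background was 0.44. Snhg1 read 34390.2, 38222 and 32179, Snhg5 read 19758, 23889.7 and 23182, and Snhg6 read 23671, 14137 and 16892. Zfas1 read 2818, 2715 and 3360.4. Over the 15 genes the median deviation was 0.01 in pool 1, -0.17 in pool 2 and 0.06 in pool 3 on the log2 scale, beside -0.04, -0.02 and 0.06 over all genes above background. None of the 20 probe sets above background of hosts other than Gas5 had the Malat1 order with a 2-fold change, also under every other scaling and pseudocount tried. Snhg11 and Snhg14, hosts known from the nervous system, were not above background.

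RNAs for the listed proteins of the bodies that Malat1 and Neat1 belong to were above background wherever measured, beside 54.4% of all 18193 genes. No protein was measured, and a protein named with signals stands for its RNA. Of 28 listed paraspeckle proteins 26 were measured and all 26 passed. Nono, a core paraspeckle protein, read 48265, 74777 and 46181, and Hnrnpk read 48639, 59538 and 39943. The brightest probe set differed 2-fold or more in 1 of 26, Zc3h6 (448, 959.5 and 402), beside 6.88% of all genes above background. Across all probe sets of this list above background, 10 of 70 had the Malat1 order with a 2-fold change or more. The share among all probe sets above background was 6.04%. On the brightest probe set, 0 of 26 genes had this order and size, beside 140 of 9889.

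Of 21 listed nuclear speckle proteins 20 were measured and all 20 passed, with Srsf1, a splicing factor, at 49357, 65294 and 44120.4. Srrm2, a scaffold of nuclear speckles, read 30716, 9014 and 5762 on its brightest probe set, the same order of pools as Malat1 and a 5.33-fold difference. Snrnp70, a protein of the U1 particle, read 2111, 3003 and 4952, the opposite order. In this list 14 of 68 probe sets above background, in 10 of 20 genes, had the Malat1 order and size, between 12 and 15 under the other scalings and pseudocounts. The corresponding share of all probe sets above background was the 6.04% given for Malat1, and by gene it was 768 of 9889. Genes with more probe sets have more chances to be counted by gene. On the brightest probe set the order and size were found in 1 of 20 genes, Srrm2, beside 140 of 9889.

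Genes linked to Malat1 or Gas5 by processing, decay, binding or class were mostly above background too, beside 54.4% of all 18193 genes. The counts of 2-fold differences below are small and stand beside the 6.88% of all genes above background, so nothing is read from them. Of 14 listed genes for Malat1 end processing and binding, 13 were measured and 12 passed, including Rpp30, a subunit of RNase P (7736, 7438 and 8767), and the brightest probe set differed 2-fold in 0 of 12. Of 10 measured genes of nonsense-mediated decay, the pathway that degrades Gas5 RNA, 9 passed and 0 of 9 differed 2-fold, with Upf2 at 17110.3, 28485 and 25369. Of 10 measured genes of the glucocorticoid receptor and its targets 9 passed and 1 of 9 differed 2-fold, Klf9 (2666, 1809 and 1249). Nr3c1, the receptor itself, which Gas5 can bind, read 1463, 845 and 769. Of 17 measured terminal oligopyrimidine mRNAs all 17 passed. Of these 2, the translation factor Eef1a1 (69360.4, 139283 and 63129) and Tpt1 (64400.0, 131489 and 65891), were 2-fold or more higher in pool 2 than in the lowest pool. Pool 2 was highest on no Gas5 probe set. It was also highest for bright genes of other lists, such as Nono, Srsf1 and Tug1. The summed signal of all 18193 genes was highest there too (5.90e+07, 6.67e+07 and 6.08e+07), so this order is not particular to the class.

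Neighbouring genes are given for their own levels, since on the brightest probe set the Malat1 order with a 2-fold change was found in 140 of all 9889 genes above background. These 9889 were 54.4% of all 18193 genes. Of 11 listed neighbours of Malat1 and Neat1, 8 were measured and 5 were above background, namely Dpf2 (8111, 6588 and 7648), Ltbp3 (4712, 4167 and 5002), Pola2 (3641, 4028 and 4571), Frmd8 (1100.4, 794 and 1027) and Tigd3 (507, 655 and 874.5). None of them differed 2-fold on its brightest probe set, although 1 of their 8 probe sets above background had the Malat1 order and size. The share of all probe sets above background with that order and size was 6.04%. Of 6 measured neighbours of Gas5, Rc3h1, Klhl20 and Cenpl passed and differed by 1.05-fold to 1.49-fold, while Zbtb37 (276, 248 and 74.1, in the Malat1 order), Serpinc1 and Ankrd45 did not pass.

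The genes whose pools deviated most like those of Malat1 were found by the distance between the 3 log2 deviations, a description over 3 arrays. For 1418188_a_at, the nearest were 1 probe set each of Eif3a (3208, 1463 and 318; distance 0.10), Rbm39 (1701, 697 and 167), Nipbl (5822, 2812 and 646), Gsk3b (1716, 621 and 149) and Chd4 (5476, 1916 and 483). Eif3a is a subunit of a translation initiation factor, Rbm39 a splicing factor, Nipbl the cohesin loader, Gsk3b a kinase of WNT signalling and Chd4 a chromatin remodeller.

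The probe sets of these genes disagreed among themselves too. The other 3 Eif3a probe sets above background had ratios of pool 1 to pool 3 between 1.25 and 1.64, against 10.1 for the near one. The other 5 of Gsk3b lay between 0.727 and 1.40, and the other one of Chd4 at 0.616, against 11.3. The near probe sets of Gsk3b and Rbm39 were under the background level in pool 3, so their folds are not given. In Nipbl 1 of 3 and in Rbm39 3 of 8 other probe sets had the Malat1 order and size. For 1418189_s_at the nearest were Nktr, Sbno1, Rif1, Mpp5 and Cnot6l, at distances of 0.05 to 0.07. Nearest to Neat1 1442881_at were Dennd6b, Tubb2a, Rgs9, P4ha3 and Prr14l, and nearest to Gas5 1436222_at were Gpkow, Xpot, Dcaf10, Gga2 and Vps53.

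Of all 18193 genes, 54.4% were above background. The sorted cells carried the markers of cap mesenchyme, with 10 of 10 genes above background, among them Eya1 (36259.6, 36418 and 28645). Of the 13 probe sets of these genes above background, 4 had the Malat1 order and size, beside 6.04% of all. They lay in 3 of the 10 genes, beside 768 of all 9889 genes above background. On the brightest probe set, Osr1 (1122, 515 and 356) differed 2-fold or more, and it and Wt1 (14753, 8513 and 8019) had the Malat1 order, while Six2 read 8734, 5727 and 9255. The part of these markers in the Malat1 differences was not tested. Stromal markers passed in 7 of 7 cases, with summed signals of 30294, 23397 and 24687 in pools 1 to 3, ureteric bud markers in 1 of 7 (Wnt11) and endothelial markers in 1 of 7 (Eng). None of 7 macrophage and 6 erythroid markers passed, with summed signals of 600.0 to 900.5 and 435 to 632, and none was listed at 0. Of 22 dissociation and immediate-early genes 20 passed, and 8 of 20 differed 2-fold, beside 6.88% of all genes above background. Of these 8, 5 were highest in pool 3, among them Fosb (1324, 698 and 1875), which had the order of Neat1 1442881_at. No share over all genes stands beside this count, so nothing is read from it. Across the 30 probe sets of the 20 genes above background, 5, in 3 genes, had the Malat1 order and size. The share was 6.04% of all probe sets above background, and 768 of 9889 by gene. Hspa1b (11489, 7087 and 3644) had the Malat1 order, as did Hspa1a, named here after its values were seen. The median deviation of the 20 genes was -0.10 in pool 1, -0.12 in pool 2 and 0.24 in pool 3 on the log2 scale. Over all genes above background it was -0.04, -0.02 and 0.06. The part of stromal cells or of stress during dissociation in the differences of Malat1 and Neat1 was not tested.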

How the data were processed

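Total RNA of 3 pools of sorted cells was read on 1 mouse Affymetrix array each. The deposited values are linear intensity signals, 1 per probe set, made by the authors with GCOS (per the submitters' processing notes, without version or settings). As tested on the file, the mean signal without the lowest and highest 2% is 1500.0 on every array, so each array was scaled to that value; median signals were 222, 197 and 184. Scaling removes differences in total signal. Having 3 arrays limits how precise any value is.

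Gene names come from the platform annotation. A probe set with several symbols names no gene, and 64 controls entered no test. All 13 member probe sets matched RefSeq by Entrez identifier. From log2(signal + 16), the array's own 95th percentile over the background probe sets was subtracted, and the mean over 3 arrays was tested against 0 with limma 3.58.1 in R 4.3.3 (intercept only, eBayes with trend, one-sided, adjusted p under 0.05). The method was also run on simulated data without effects shared within an array, and no call here rests on that run. Pools were compared without a test, because each has 1 array. A gene is represented by its brightest probe set, and counts of 2-fold differences use log2(signal + 16), which understates changes of weak signals. Folds between pools are ratios of signals. Tables and plots were made in Python 3.11.15 (pandas 2.3.3, matplotlib 3.10.9).

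The members and gene lists were chosen with earlier results of these data known. The genes that could be named were the brightest 3 and most variable 2 of each list, all of the noncoding RNA, host, neighbour and cap mesenchyme lists, and the 5 nearest genes. Alternatives were pseudocounts of 1 and 64, the 90th and 99th percentile of background, quantile and median scaling, eBayes without trend, a mean signal of at least 50, leaving out each pool and, chosen after the data were seen, scaling on hybridization controls.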

Additional observations from a re-analysis of the deposited data

How the results depend on the processing

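The count of member probe sets above background, 12 of 13, lay between 11 and 13 under all 11 alternatives, and that of all probe sets, 18680, between 14464 (99th percentile of background) and 19923 (90th percentile). The call of Malat1 1427285_s_at was gained at the 90th percentile (adjusted p = 0.0312, limma), with a mean signal of at least 50 (0.0436) and without pool 3 (0.00331), and that of Neat1 1428083_at was lost at the 99th percentile. The count of member probe sets that differed 2-fold between pools was 8 under every other pseudocount and scaling, and 4 to 7 when 1 pool was left out. Leaving out a pool gave spreads of log2 ratios of 2.12 to 3.61 for Malat1, 0.33 to 1.35 for Neat1 and 0.13 to 1.46 for Gas5; each such value has fewer arrays by construction. With suffixed probe sets (a, s or x, which may match several transcripts) left out, the Malat1 spread was 3.09, and for Gas5 no value could be had, since 1 probe set was left. Scaling on hybridization controls moved the median difference between pools 1 and 2 from 0.03 to 0.30 log2 units. No paired analysis was possible because there is 1 group.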

Other observations

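A probe set assigned to both Gas5 and Snord47, a snoRNA encoded within it, was left out of the comparisons because its platform annotation holds 2 symbols, and it was chosen here after its values were seen. It read 25829, 25394 and 19273 in pools 1, 2 and 3, with a mean of 23498 ± 3666 (SD, n = 3) and a 1.34-fold difference between the highest and the lowest pool. Pool 3 was thus lowest, in the Malat1 order though under 2-fold, unlike on any probe set assigned to Gas5 alone. It lay 6.79 log2 units over background (adjusted p = 1.65e-08, limma).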
